A study of Mus musculus with 4 samples.

Results

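The 47 genes described here encode the DNA replication machinery of S phase and the proteins that supply it or switch it on. They were chosen by name from textbook roles, and each was read by the probe sets that the array's annotation assigns to that gene alone. Of the 47, 45 had such a probe set, 86 in all, among 12393 genes measured on the array; Gins2 and Chaf1a had none. Where a gene had several, the brightest, with the highest mean signal over the 4 arrays, stood for it. By that probe set 36 members passed a filter on dim probe sets, a mean signal of at least 21.3, and were tested among 7860 genes; the other 9 lay below it.

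The RNA came from CD4 cells, the helper T cells, of mice that were either wild type (+/+) or sanroque (san/san). Each genotype has 2 Affymetrix MOE430A arrays, 4 in all. Sanroque mice descend from male C57BL/6 mice treated with the mutagen ENU and carry, as homozygotes, a recessive variant that came up in a screen for antinuclear autoantibodies. As background, the affected gene is Rc3h1; its product Roquin-1 binds and represses mRNAs in T cells. No treatment or stimulation is named for either genotype, and the labels give neither the age nor the sex of the mice sampled. The experiment information describes the day 1 arrays as sorted T cells. The array of wild type replicate 2 carries the letters CBA there, which the labels do not explain. In any comparison that uses this array, a difference in strain cannot be told apart from one of genotype. The pair of replicate 1 arrays does not use it. Nothing states that replicates came from separate mice, so the spread behind each p-value is that between arrays and could be technical. Replicate 1 of both genotypes was hybridised on 1 day and replicate 2 on another, called day 1 and day 2 here, so each genotype difference can also be read within a day.

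Resting T cells carry little of the replication machinery. When a cell commits to divide, cyclin E with Cdk2 releases E2F transcription factors, which switch on most of these genes together. The origin recognition complex with Cdc6 and Cdt1 loads the MCM helicase onto DNA, Cdc45 and GINS activate it, and polymerases copy the strands while the PCNA clamp holds them in place. Ribonucleotide reductase, thymidine kinase, thymidylate synthase and dUTPase make the deoxynucleotides. In bulk RNA, fewer cells in S phase and less RNA per cell cannot be told apart.

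Because E2F factors act on members through their promoters, RefSeq promoter windows (build GRCm38.p6, from 250 bases before to 50 after each annotated start) were searched for the E2F-type letters TTTCCCGC, TTTCGCGC, TTTGCCGC and TTTGGCGC on both strands. The tables held 48 windows for 40 members. Of these windows 14, or 29.2%, held a match, against 2.26% of all 32851 windows and 3.99% of windows of genes tested on the arrays. The letters CCAAT, the core of the NF-Y site, were in 60.4% of the members' windows and in 37.4% of all windows. Matches are letters only; binding was not measured.

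The 160 bases before the start of 5 members are shown, each written along the gene's own direction: the called gene, and others with E2F-type letters and changes from -0.02 to 0.47. Capitals mark CCAAT in Rrm2, the single member that passed the test, and E2F-type letters on either strand in the others. Rrm2 is at chr12:24708094-24708253 on the plus strand, Mcm6 at chr1:128359706-128359865 on the minus strand, Mcm5 at chr8:75109349-75109508 on the plus strand, Pola1 at chrX:93632156-93632315 on the minus strand and Rfc3 at chr5:151651209-151651368 on the minus strand.
Rrm2: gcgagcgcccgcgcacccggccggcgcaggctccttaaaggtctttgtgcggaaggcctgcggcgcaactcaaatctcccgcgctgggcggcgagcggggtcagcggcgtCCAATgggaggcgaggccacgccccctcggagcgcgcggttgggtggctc
Mcm6: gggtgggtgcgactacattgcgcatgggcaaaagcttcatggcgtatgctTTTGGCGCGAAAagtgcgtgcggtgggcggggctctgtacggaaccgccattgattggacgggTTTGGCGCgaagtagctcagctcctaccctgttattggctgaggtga
Mcm5: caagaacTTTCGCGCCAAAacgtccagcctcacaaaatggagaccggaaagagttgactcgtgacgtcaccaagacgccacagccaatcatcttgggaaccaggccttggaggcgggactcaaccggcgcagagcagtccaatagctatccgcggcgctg
Pola1: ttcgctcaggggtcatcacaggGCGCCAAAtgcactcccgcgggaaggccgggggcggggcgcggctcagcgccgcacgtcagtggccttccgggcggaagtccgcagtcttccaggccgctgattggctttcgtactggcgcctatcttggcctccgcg
Rfc3: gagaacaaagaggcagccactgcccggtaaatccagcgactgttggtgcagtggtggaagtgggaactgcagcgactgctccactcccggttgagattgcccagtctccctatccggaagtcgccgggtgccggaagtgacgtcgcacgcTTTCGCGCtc
In Mcm6 and in Mcm5 a match on 1 strand overlaps a match on the other, so a run of capitals there is longer than a motif. The Rrm2 window held none of the 4 E2F-type words, which says only that these letters are not in it.

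Most replication genes differed little between genotypes. Rrm2, which encodes the small subunit of ribonucleotide reductase, was about 3.13-fold higher in sanroque and was the single member of 36 to pass in limma (adjusted p under 0.05 over all 13578 probe sets). None was lower. Over all genes tested, read the same way, 1.11% were called, 0.776% higher and 0.331% lower; over all probe sets the shares were 1.06%, 0.67% and 0.39%. At an unadjusted p under 0.05 the limma test gave 2 members higher, Rrm2 and Mcm6, and 0 lower, against 6.16% and 3.44% of all genes. With the day as a block, limma called the same single member higher and 0 lower, against 3.92% and 2.14% of all genes, 6.06% together. Over all probe sets the block gave 6.28%, 3.59% higher and 2.69% lower. There 6 members (16.7%) were higher and 0 lower at an unadjusted p under 0.05, against 11.2% and 7.61% of all genes. On simulated data 11.6% of calls with the block were false, against 5.17% without it. Those data held no difference between days, unlike these arrays, so they cannot say how often block calls are false here. Calls with the block alone rest on a fit with 1 residual degree of freedom and are taken as less secure.

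The median log2 change of the 36 members was 0.0594, beside 0.0312 for all genes tested, and 33 of 36 (91.7%) changed by less than 0.5 on the log2 scale, as did 87.3% of all genes. Here and below a log2 change is sanroque minus wild type on log2(signal + 6), which understates the change of dim probe sets. Of the members 23 lay above 0 (63.9%, against 54.2% of all genes) and 13 below. After median centring of the arrays the split was 16 and 20, and the median was -0.0313. In 12 members both sanroque arrays lay above both wild type arrays (33.3% of members, 22.3% of all genes), and in 4 they lay below both (16.3% of all genes). Leaving out wild type replicate 2 moved the members' median to 0.204.

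**Figure D1:**
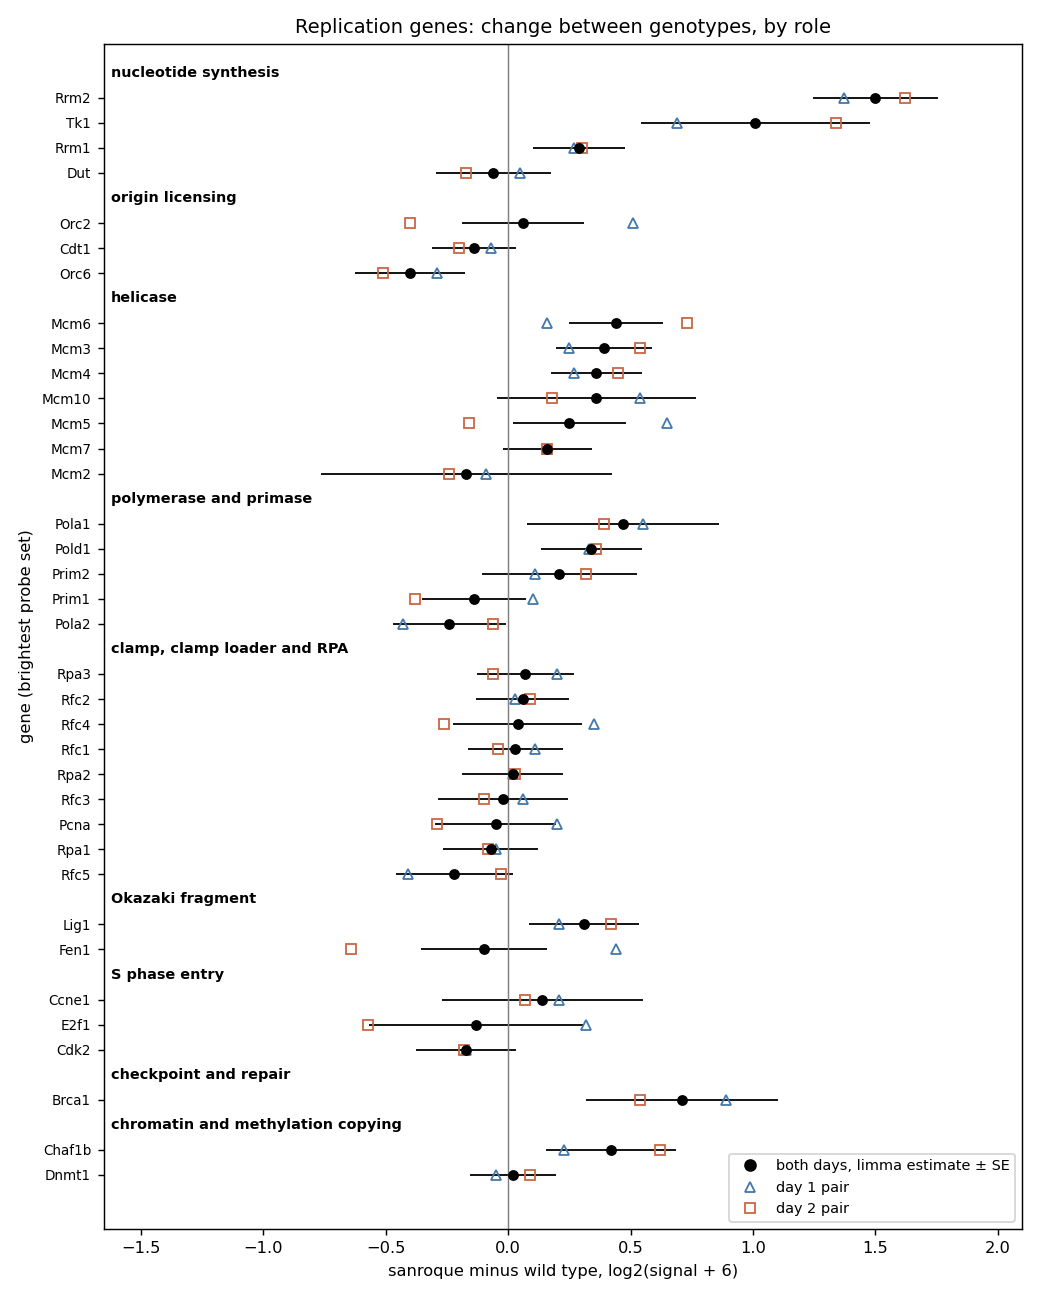
Change from wild type to sanroque for the 36 members tested, grouped by role, on the log2(signal + 6) scale; black points are limma estimates with their standard error, and open symbols are the differences within each hybridisation day. Rrm2 at 1.50 and Tk1 at 1.01 lie farthest to the right, and the clamp, clamp loader and RPA genes lie between -0.22 and 0.07.

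Nucleotide synthesis held the largest changes. Rrm2 read 38 and 26.8 in wild type replicates 1 and 2, and 107.8 and 94.8 in sanroque replicates 1 and 2. Both sanroque arrays were well above both wild type arrays, and the gap was several times the difference between replicates. Means were 32.4 ± 7.92 and 101.3 ± 9.19 (SD, n = 2 each), a log2 change of 1.50 with a standard error of 0.26 (limma adjusted p = 0.0209; 1.48e-05 with the day as a block). The change was 1.37 on day 1 and 1.62 on day 2.

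Rrm2 has another 2 probe sets, and on both the genotypes were also apart. The second read 40.7 and 12.1 in wild type and 90.6 and 80.4 in sanroque, a log2 change of 1.65 (limma adjusted p = 0.103; 7.01e-05 with the block). The dimmest read 14 and 19.2 against 44.2 and 40.6, a change of 1.11 (limma adjusted p = 0.321; 0.0337 with the block). So the call rests on the brightest probe set unless the day is in the fit. The brightest did not pass without sanroque replicate 1 (limma adjusted p = 0.0875) or sanroque replicate 2 (0.0553), without the filter (0.132) or without the variance trend (0.101). It did pass without wild type replicate 1 (limma adjusted p = 0.00024) and without wild type replicate 2, the array with the unexplained letters (1.28, limma adjusted p = 0.0285).

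Rrm1, the large subunit that joins Rrm2 in the active enzyme, read 118.7 and 128.4 in wild type and 144.6 and 160 in sanroque. Its arrays did not overlap, but the log2 change of 0.29 did not pass (limma adjusted p = 0.701). A dimmer Rrm1 probe set read 79.7 and 72.1 against 138.5 and 123.2, a change of 0.74 that passed with the day as a block alone (0.00891, against a limma adjusted p of 0.158 without it). The probe sets of this gene therefore disagree on the size of the change, not on its sign.

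Thymidine kinase, Tk1, salvages thymidine in S phase. It read 21.4 and 8.5 in wild type and 38.3 and 30.6 in sanroque, a log2 change of 1.01 with a standard error of 0.47 (limma adjusted p = 0.515; 0.0946 with the block). Every sanroque value was above every wild type value, yet the wild type arrays differed from each other by 0.92, so the 95% interval of the change ran from -0.02 to 2.05. The change was 0.56 without wild type replicate 2 and up to 1.47 with wild type replicate 1 left out. Tyms, the thymidylate synthase, was below the filter on all 3 of its probe sets; the brightest read 10.7 and 5.6 against 14.7 and 9.3, with the genotypes overlapping. Dut, which removes dUTP, read 91.1 and 135.4 in wild type and 94.3 and 119.7 in sanroque. Its replicates differed by more than its genotypes, with a change of -0.06 (limma adjusted p = 0.974). A dimmer Dut probe set, below the filter, read 19.9 and 6.1 against 20.2 and 17.9.

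**Figure D2:**
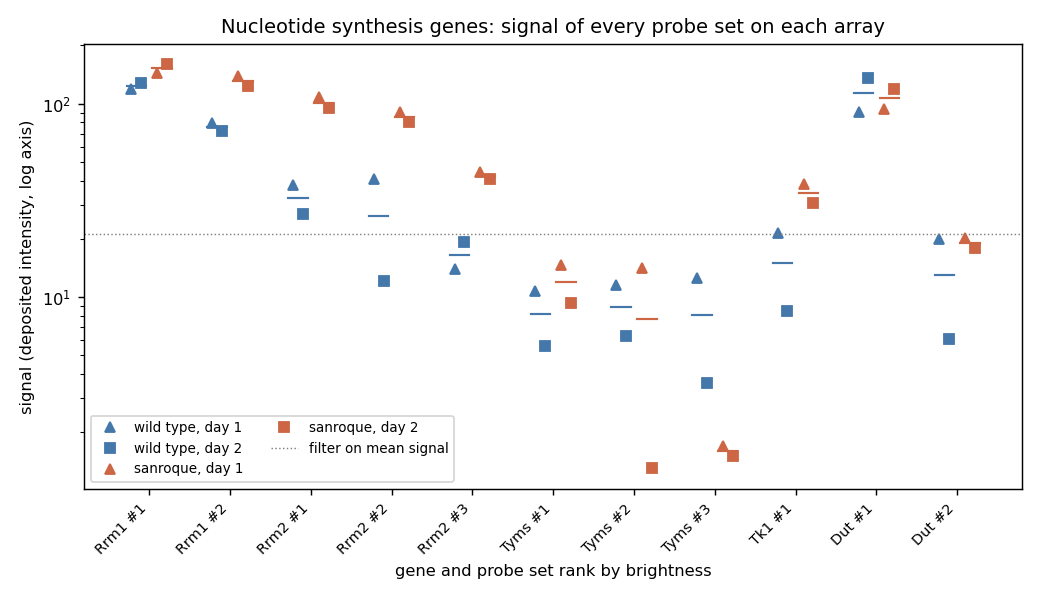
Deposited signal, on a log axis, of every probe set of the 5 nucleotide synthesis genes on each of the 4 arrays; triangles are day 1, squares day 2, short lines the genotype means, and the dotted line the filter at 21.3. All 3 Rrm2 probe sets and both Rrm1 probe sets have both sanroque arrays above both wild type arrays. In both genotypes the brighter Dut probe set is higher on day 2 and the dimmer one lower.

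Origin licensing genes did not pass in either direction, and 2 of the 3 tested were lower. Orc6, a small subunit of the origin recognition complex, read 75.2 and 80 in wild type and 60.3 and 54.4 in sanroque. Both sanroque arrays lay below both wild type arrays, with a log2 change of -0.40 and a standard error of 0.23 (limma adjusted p = 0.632; 0.285 with the block). Cdt1, the loading factor that is destroyed once S phase starts, had -0.14, from 457.2 ± 43.8 to 414.3 ± 13.2 (SD, n = 2 each; limma adjusted p = 0.888). Orc2, another subunit of the complex, overlapped between genotypes, with 0.51 on day 1 and -0.40 on day 2. The E2F-induced genes Orc1 and Cdc6 were below the filter. Orc1 read 9 and 10.2 against 14.7 and 12.4, and Cdc6 8.9 and 14.1 against 22.5 and 8.2.

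The MCM helicase, a ring of 6 related subunits that unwinds DNA at the fork, had mostly positive changes and no call. Of its 6 subunits 5 had a positive change, also after median centring of the arrays. The changes ran from -0.17 to 0.44 with a median of 0.305, and limma adjusted p ran from 0.482 to 0.971 (from 0.104 to 0.667 with the block). Over all 15 tested probe sets of these subunits 13 had a positive change; 6 did not overlap upwards and 1 downwards. Over all 13578 probe sets 52.1% had a positive change, 21% did not overlap upwards and 17.7% downwards; probe sets of 1 gene are not independent of each other.

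Mcm6 had the largest change of the ring. It read 261.6 and 202.7 in wild type and 292.6 and 339.1 in sanroque, with means of 232.2 ± 41.6 and 315.9 ± 32.9 (SD, n = 2 each). The sanroque arrays were both higher, but the gap on day 1 was 0.16 and on day 2 0.73. The log2 change was 0.44 with a standard error of 0.19, and its 95% interval before adjustment ran from 0.02 to 0.87 (limma adjusted p = 0.482; 0.104 with the block). Mcm3 read 105.1 and 94.5 against 125.8 and 139.8, and Mcm4 203 and 221.8 against 246.6 and 305.6. Neither overlapped between genotypes, and both had like sizes, 0.39 and 0.36 (limma adjusted p = 0.568 and 0.584). As background, Mcm4, Mcm6 and Mcm7 can unwind DNA by themselves, and Mcm2 and Mcm5 form the gate through which the ring opens.

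Mcm7 read 394.1 and 466.8 against 440.3 and 521.5 on its brightest probe set. It differed by 0.16 within each day, less than the 0.24 by which the days differed in each genotype. Its other 3 tested probe sets gave 0.29, 0.34 and -0.31, so they did not share a sign. Mcm5 read 85.1 and 124.5 against 137.3 and 110.6 and overlapped, with 0.65 on day 1 and -0.16 on day 2.

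Mcm2 stood apart for another reason. Its brightest probe set read 280.2 in wild type and 262.3 in sanroque on day 1, and 78.1 and 65.2 on day 2. The day, not the genotype, separated these arrays: day 2 was lower by 1.77 in wild type and by 1.91 in sanroque on the log2 scale, against a genotype change of -0.17. Its other probe set read 103.4 and 83.9 in wild type and 87 and 134.2 in sanroque, and showed no such drop on day 2 in both genotypes. A Mcm2 level from the brightest probe set therefore holds within a day only.

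**Figure D3:**
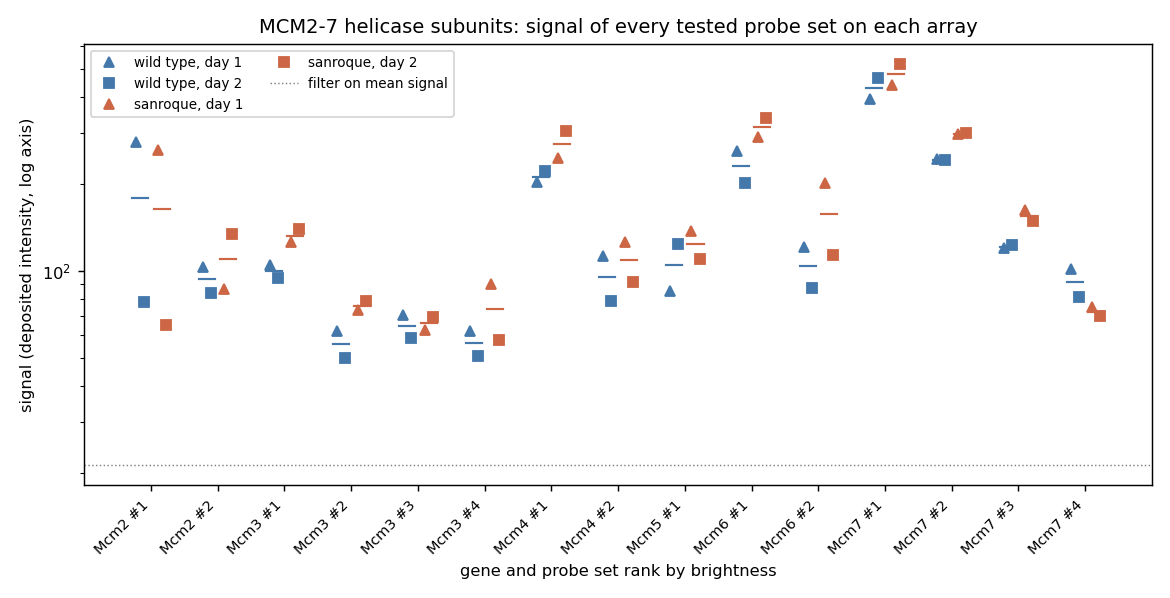
Deposited signal, on a log axis, of the 15 tested probe sets of the 6 MCM ring subunits on each array; triangles are day 1, squares day 2, short lines the genotype means, the dotted line the filter at 21.3. The brightest Mcm2 probe set splits by day, near 280.2 and 262.3 against 78.1 and 65.2, and Mcm6 has both sanroque arrays above both wild type arrays on its brightest probe set.

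Of the helicase's partners, Mcm10, which helps to start the fork, had 0.36 with overlapping arrays, 29.1 and 20.3 against 44.9 and 23.7 (limma adjusted p = 0.875). Cdc45 and Gins1, parts of the active helicase, were below the filter. Cdc45 read 11.1 and 10.1 against 26.2 and 6.9, and Gins1 10 and 18.6 against 9.7 and 21.8; both overlapped, and each has 1 probe set.

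Polymerase and primase genes went both ways and none of 5 tested passed, with log2 changes from -0.24 to 0.47. Pola1, the catalytic subunit of the polymerase that starts new strands, read 22.6 and 19.3 in wild type and 35.9 and 27.1 in sanroque. Its arrays did not overlap, and it had the largest change of the group, 0.47 with a standard error of 0.39 (limma adjusted p = 0.79; 0.485 with the block). Its partner Pola2 went the other way, 78.7 and 68.4 against 56.8 and 65.6, a change of -0.24 (limma adjusted p = 0.833). Pold1, the lagging strand polymerase, read 81.4 and 72.9 against 103.5 and 95.3 and had 0.34 (limma adjusted p = 0.667), nearly equal on both days at 0.33 and 0.36. The primase subunits Prim1 and Prim2 had -0.14 and 0.21. A dimmer Prim1 probe set read 67.1 and 55.7 against 37.7 and 32.6, lower on both sanroque arrays, with -0.71 (limma adjusted p = 0.401; 0.071 with the block). Pole, the leading strand polymerase, was below the filter, at 12 and 12.6 against 8.2 and 13.7.

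The clamp, its loader and the single-strand binding protein RPA had small changes by their brightest probe sets. All 9 genes were tested, none passed, and their changes lay between -0.22 and 0.07. Pcna, the sliding clamp, read 1243.7 and 2125.5 in wild type and 1425.8 and 1741.7 in sanroque. The wild type arrays bracketed both sanroque arrays, day 2 was higher in both genotypes, and the change was -0.05 with a 95% interval from -0.59 to 0.50 (limma adjusted p = 0.98). Rpa1 read 1192.7 and 1494.5 against 1148.4 and 1410.8, a change of -0.07 that was also smaller than its day difference. The 5 clamp loader subunits, Rfc1 to Rfc5, had changes from -0.22 to 0.06, and only Rfc5 did not overlap, at 70.1 and 67.8 against 51.2 and 66.3 (limma adjusted p = 0.866). Over the group 5 of 9 changes were positive, and after median centring of the arrays, which shifts every gene alike, 0 of 9 were. Pcna, Rfc3, Rfc5 and Rpa1 were negative under both. Dimmer probe sets of this group differed more. For Rfc1 one gave 0.39 with both sanroque arrays higher and another -0.26 with both lower, and for Rfc3 one gave 0.34 with both higher (limma adjusted p = 0.631, 0.884 and 0.854). The widest 95% interval bounds among the brightest probe sets were -0.75 and 0.63, so changes within that range are not excluded.

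On the lagging strand, Fen1 cuts the flaps and Lig1 seals the nicks between Okazaki fragments. Lig1 read 69.6 and 58.4 in wild type and 81.3 and 80.3 in sanroque, higher on both arrays, with 0.31 and a standard error of 0.22 (limma adjusted p = 0.735). Fen1 read 110 and 191.3 against 151.2 and 120.3 and turned sign with the day, from 0.44 to -0.64.

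The genes that open S phase did not pass either. Cdk2, the kinase, read 140.6 and 117.9 against 124.7 and 103.5, a change of -0.17 on day 1 and -0.18 on day 2, with overlapping arrays (limma adjusted p = 0.883). Its activating cyclin Ccne1 had 0.14, less than the day difference of 0.53 in wild type, and Ccne2 was below the filter at 16.8 and 11.6 against 12.7 and 11.2. E2f1, the activator of the other members, read 24.6 and 26.1 against 32.1 and 15.6. The sanroque arrays of E2f1 fell on opposite sides of the wild type arrays, and the change of -0.13 did not pass (limma adjusted p = 0.971).

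Checkpoint and repair members were dim. Brca1, a repair factor at stalled forks, read 26.2 and 18.3 in wild type and 53.5 and 29.4 in sanroque by its brightest probe set. Both sanroque arrays were higher, with 0.71 and a standard error of 0.39 (limma adjusted p = 0.624; 0.178 with the block), and its other 3 probe sets were below the filter. The change was 0.34 without sanroque replicate 1 and 1.09 without sanroque replicate 2. Chek1, the kinase that halts S phase on damage, was below the filter on all 4 probe sets. Its brightest read 13.3 and 2 against 24.5 and 19.1, apart by genotype but at signals where the wild type arrays themselves differed by 1.27 on the log2 scale.

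Among genes that copy chromatin and DNA methylation, Chaf1b, a subunit of the histone chaperone CAF-1, read 43.6 and 38.3 in wild type and 52.1 and 62.1 in sanroque. Its arrays did not overlap, with 0.42 and a standard error of 0.27 (limma adjusted p = 0.685). Dnmt1, the maintenance methyltransferase, read 249.1 and 225.3 against 240.2 and 240.5, overlapping, with a change of 0.02 with a 95% interval from -0.37 to 0.41. Its recruiter Uhrf1 was below the filter, at 16.4 and 9.5 against 22.1 and 20.1, higher on both sanroque arrays.

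Of the 9 members below the filter, with mean signals from 10.07 to 17.02, 3 did not overlap upwards (Orc1, Chek1 and Uhrf1), 0 downwards, and 6 overlapped. They were not tested, and without the filter none of them passed. The shares among all genes below the filter were not counted, so the non-overlap counts of these members have no background beside them. Among 19 tested members with 2 or more tested probe sets, 10 had the same sign on all of them, so for the other 9 the choice of probe set decides the sign.

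These genes differed between the hybridisation days about as much as between the genotypes. Each day holds another replicate of each genotype, and the day 1 arrays are described as sorted T cells. The day therefore cannot be told apart from the replicate or the cell preparation. The median size of the day difference, averaged over genotypes, was 0.177 on the log2 scale, against 0.17 for the genotype, and in 19 of 36 members it was the larger. Across members the day difference in wild type correlated with that in sanroque with r = 0.598, and the genotype difference on day 1 with that on day 2 with r = 0.551 (n = 36 genes, which share arrays and are not independent; 0.418 and 0.472 over 7860 genes). The genotype change had the same sign on both days in 24 of 36 members, 17 higher and 7 lower. Over all 7860 genes it did so in 4890, 2738 higher and 2152 lower. The median genotype change was 0.2 on day 1 and 0 on day 2, against 0.0351 and 0.0308 over all genes. The members' median therefore stood above that of all genes on day 1 and not on day 2.

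**Figure D4:**
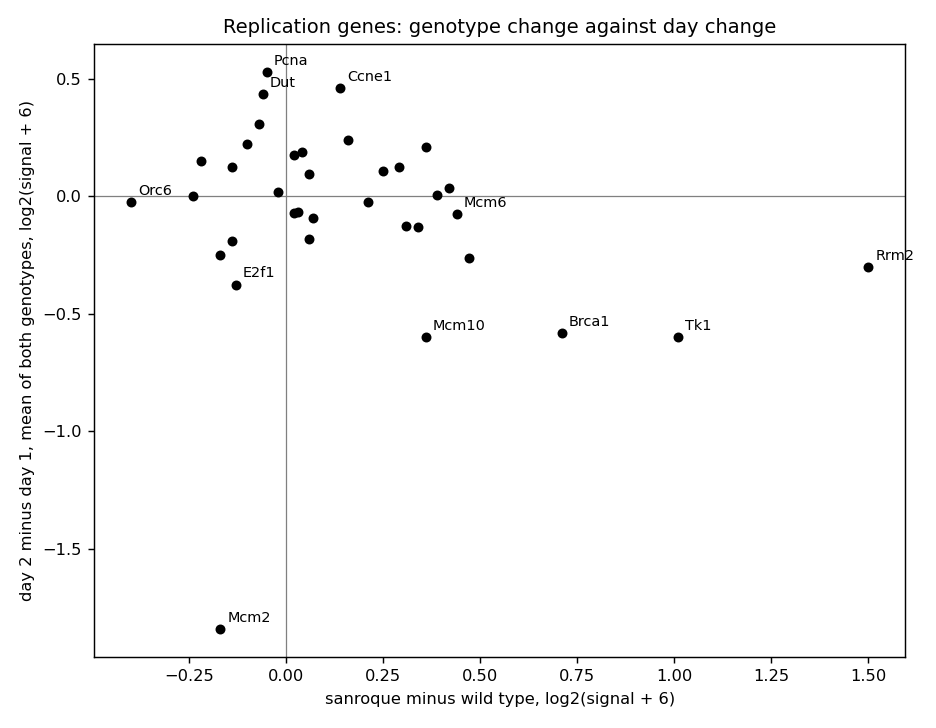
For the 36 members tested, the change from wild type to sanroque (x axis) against the change from day 1 to day 2 averaged over genotypes (y axis), both on log2(signal + 6). Rrm2 lies far along the genotype axis at 1.50, Mcm2 far along the day axis at a genotype change of -0.17, and most others within 0.5 of 0 on both.

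Members with E2F-type letters in a promoter window were compared with those without, as a description. The 11 tested members with a match had a median log2 change of 0.25, with 8 above 0, and the 22 without had 0.025, with 12 above 0. The tested members Mcm4, Prim2 and Rfc2 had no window and are in neither group. Those with a match include Mcm3, Mcm5, Mcm6 and Mcm7, which belong to the same ring. Matched members below 0 were Cdk2 at -0.17, Cdt1 at -0.14 and Rfc3 at -0.02. Within the stretches shown, Mcm6 holds 3 matches, the nearest from 47 to 40 bases before the start, and had 0.44; Pola1 holds 1 and had 0.47; Rfc3 holds 1, from 10 to 3 bases before the start, and had -0.02. Rrm2 and Tk1, with the largest changes, had no match.

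A further list of 127 replication genes outside these 47, of the same roles, held 87 tested genes. Limma called 1 higher and 0 lower, against 0.776% and 0.331% of all genes. At an unadjusted p under 0.05 limma gave 6 higher (6.9%, against 6.16% of all genes) and 2 lower (2.3%, against 3.44%). With the day as a block 2 were called higher and 1 lower, against 3.92% and 2.14% of all genes. The median change was 0.0807. In 25 of 87 genes (28.7%, against 22.3% of all genes) the arrays did not overlap upwards, and in 8 downwards (16.3% of all genes). The called gene was Donson, which protects forks under stress. It read 27 and 26.1 in wild type and 107.3 and 107.6 in sanroque on its single probe set, with no overlap; the replicates differed by under 1 signal unit. Its log2 change was 1.80 with a standard error of 0.24 (limma adjusted p = 0.00484), and it did not pass without the filter (0.0597).

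The other calls came with the block alone, a fit that leaves 1 residual degree of freedom. Tfdp1, the partner of E2F proteins on DNA, read 103.9 and 103.6 against 152.8 and 158.9, a change of 0.56 (limma adjusted p = 0.303; 0.0451 with the block). Timeless, part of the fork protection complex, was lower, 107.9 and 117.7 against 62.5 and 69, a change of -0.73 (limma adjusted p = 0.186; 0.0141 with the block). Its dimmer probe set had -0.23 (limma adjusted p = 0.907).

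Markers of other cells moved with genotype beside these values. The summed signal of 15 myeloid genes was 1747.9 to 1960 in wild type and 4498 to 4517.2 in sanroque. Of 13 tested, 5 were called higher, against 0.776% of all genes. That of 14 red cell and progenitor genes was 1567.3 to 1795.7 against 2254 to 2272, with 0 of 10 called. With the block 3 were called higher, against 3.92% of all genes. Of the granule genes made in maturing granulocytes, Ngp read 39.3 and 36.1 against 186.7 and 203.6 and was called higher. Camp (4.5 and 17.2 against 55.2 and 59.1) and Ltf (26.2 and 20.5 against 62.2 and 70.3) did not overlap and were called with the block. Of those made earlier, Mpo read 29 and 15.6 against 35.7 and 26.4, overlapping, and Elane lay between 1.3 and 3.4 on all arrays. Kit, a progenitor receptor below the filter, read 14.6 and 2.4 against 41.5 and 22.8. Of the 10 tested red cell and progenitor genes 4 did not overlap upwards and 2 downwards (22.3% and 16.3% of all genes). Higher were Alas2, at 604.4 and 637.4 against 905.2 and 1027.4, and Slc4a1, at 161 and 127.6 against 234.6 and 246.2. So were Car2, at 231.4 and 256.7 against 341.2 and 387.4, and Gata1, at 35.2 and 26.2 against 44.4 and 38.1. Of these Alas2, Slc4a1 and Car2 were called with the block. The lower ones were Klf1, at 26.6 and 26.3 against 18.1 and 15.7, and Tfrc, at 237.5 and 192.3 against 175.7 and 184.9. Sums overlapped between genotypes for 11 B cell genes (1614.2 to 1681.1 against 1550.3 to 1698.8), 7 germinal centre B and plasma cell genes (1003.7 to 1109.6 against 1002.3 to 1140.4) and 9 CD8 T and NK cell genes (604.5 to 664.1 against 618.6 to 694.4). Of 9 tested B cell genes 2 did not overlap upwards and 4 downwards (22.3% and 16.3% of all genes). Cr2 was called lower with the block alone, at 152.4 and 130.5 against 70.1 and 96.7 (limma adjusted p = 0.0126 with the block, 0.216 without it). Of 9 tested CD8 T and NK cell genes 3 did not overlap upwards and 2 downwards (22.3% and 16.3% of all genes). Nkg7 was called higher with the block alone, at 76.2 and 73.1 against 126.9 and 139.9 (limma adjusted p = 0.00517 with the block, 0.119 without it). Most of the germinal centre and plasma cell sum was Jchain and Xbp1. In that list 3 of 5 tested genes did not overlap upwards and 1 downwards (22.3% and 16.3% of all genes), none called. The higher ones were Xbp1, Mef2b at 14.6 and 16.6 against 34.8 and 30.3, and Prdm1 at 50 and 40.2 against 74.8 and 59.5. Jchain was lower, at 471.2 and 521.2 against 399.5 and 354.5, and Derl3 overlapped. Gcsam, below the filter, read 15.1 and 8.4 against 16.9 and 21.6. Of 6 immature thymocyte genes the sum was 640.2 to 669.9 against 603.8 to 623.8, mostly from Tcf12 and Cd1d1. Of its genes below the filter, Rag1 read 7.5 and 0.4 against 15.4 and 15.8 and Ptcra 12.7 and 2.1 against 29.8 and 14.7, both higher on both sanroque arrays, while Rag2 lay between 1.8 and 3.5. The CD4 T cell genes were present on all arrays, with Cd4 at 533.3 and 613.5 against 585.9 and 570.2. Sums of 9 of them were 10356.2 to 11269.5 against 9577.4 to 10638.3, overlapping. None was called in either fit, while 1 did not overlap upwards and 3 downwards (22.3% and 16.3% of all genes). The lower ones were Cd247, Cd5 and Cd3g. Cd247 read 672.1 and 674 against 494.1 and 512.7, and Cd5 925.3 and 973.8 against 693.7 and 759.8. The part of any of these cell types in the Rrm2 result was not tested.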

How the data were processed

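Deposited linear intensity values, 1 for each probe set on each array, were used as the authors gave them. How probes were summarised is not given in the sources used here. Trimmed means (from 2% to 98%) lay between 99.59 and 99.97, so no further scaling was applied. The chip type and hybridisation days were taken from the experiment information, per the file headers. Of 22690 probe sets, 64 controls and those with a mean signal under the 40th percentile (21.3) were left out, leaving 13578. Symbols came from the platform annotation, updated by gene identifier through RefSeq's gene table: 20380 probe sets had 1 symbol, 691 several and 1555 were not listed.

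Sanroque was compared with wild type on log2(signal + 6) by limma 3.58.1 in R 4.3.3 (lmFit, eBayes with a variance trend), two-sided, without covariates, and p-values were adjusted over the 13578 probe sets by Benjamini-Hochberg. The replicate numbers pair arrays by day, since both number 1 arrays and both number 2 arrays share a day; deviations of same-numbered arrays correlated with 0.392. The fit with the day as a block is given beside results it changes. It leaves 1 residual degree of freedom. Code was tested on simulated data. Figures used matplotlib 3.10.9 in Python 3.11.15.

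The members and gene lists were chosen with earlier results of these data known. The rule for named genes was to give array values for members past either fit and for the largest change in each role, and to name other replication genes that passed either fit. Array values of further members are printed outside that rule, so that every member is accounted for, and were added with their values seen. Alternatives were quantile normalization, median centring, a pseudocount of 1 or 24, no filter or the 60th percentile, no variance trend, the block, each array left out, and averaging the probe sets of a gene.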

Additional observations from a re-analysis of the deposited data

How the results depend on the processing

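Precision is limited by there being 2 arrays for each genotype. Rrm2 passed under 9 of 13 alternatives; members called higher were 0 without the filter and 0 without the variance trend, and 0 to 1 with an array left out. Members called lower were 0 throughout. The members' median ran from 0.0325 to 0.204 with an array left out, the highest without wild type replicate 2, and was -0.0313 with median centring. Other replication genes called higher were 0 without the filter and 2 with the replicate block, which also called 1 lower. Probe sets called in all were 144, against 56 without the filter, 47 without the variance trend, 853 with the replicate block and 105 to 356 with an array left out. The highest of these was without wild type replicate 1. The block changed no other call on a member's brightest probe set. The cause of these changes was not tested.

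Of the 36 members 18 changed sign under some alternative, all with a size of at most 0.36 and none called. With quantile normalization Pcna was 0.06. With median centring Orc2 was -0.03, Rfc1 -0.06, Rfc2 -0.03, Rfc4 -0.05, Rpa2 -0.07, Rpa3 -0.02 and Dnmt1 -0.07. When the probe sets of a gene were averaged, Orc2 was -0.18, Mcm2 0.02, Rfc3 0.16 and Fen1 0.07. With each array left out the range was -0.33 to 0.21 for Dut, -0.22 to 0.33 for Orc2, -1.12 to 0.79 for Mcm2, -0.01 to 0.50 for Mcm5, -0.03 to 0.74 for Mcm10, -0.36 to 0.08 for Prim1, -0.43 to 0.34 for Pcna, -0.04 to 0.11 for Rfc1, -0.04 to 0.17 for Rfc2, -0.07 to 0.03 for Rfc3, -0.20 to 0.29 for Rfc4, -0.23 to 0.09 for Rpa1, -0.07 to 0.11 for Rpa2, -0.04 to 0.18 for Rpa3, -0.49 to 0.28 for Fen1, -0.12 to 0.41 for Ccne1, -0.54 to 0.28 for E2f1 and -0.05 to 0.09 for Dnmt1. Without a change of sign, Tk1 ran from 0.56 to 1.47 and Brca1 from 0.34 to 1.09.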
